A study of Mus musculus with 4 samples.

Results

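Laminins and integrins were taken here as the genes of the laminin alpha, beta and gamma chains and of the integrin alpha and beta subunits, found by their gene symbols on arrays of differentiating mouse embryonic stem (ES) cells. The platform annotation gives a single symbol of this form for 38 probe sets, which stand for 37 of the 19938 genes measured. Of these, 10 encode laminin chains and 27 encode integrins, as 18 alpha and 9 beta subunits. Itgad has 2 probe sets and every other member has 1. Members were chosen by gene symbol alone, but the symbol rule was set with earlier results of these data known.

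The series holds 4 arrays, 1 for each condition. Embryoid bodies (EBs), which are aggregates of differentiating ES cells, were treated with 50 nM bexarotene, treated with retinoic acid (RA) or left untreated, and all were collected at day 7 with the first 2 days spent in hanging drops and the next 5 days in suspension culture. Undifferentiated ES cells at day 0 were the fourth condition, and the article gives the D3 line as their source. RA was at 5 µM in the sample labels and at 10 nM in the article, so its dose is not settled and by either account differs from that of bexarotene. Bexarotene is a synthetic agonist of the retinoid X receptors (RXR), and RA is the natural ligand of the retinoic acid receptors (RAR). An EB is a mixture of cell types, and no condition has a replicate. All values below are log2 signal per probe set as the authors normalized it, and differences are between 2 arrays on that scale. A gene is described as past the threshold where it differed by more than 1.5-fold, 0.585 on the log2 scale, the size used in the article. Without replicates no test was possible, and a gene past 1.5-fold is a difference between 2 arrays.

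Laminins are secreted trimers of an alpha, a beta and a gamma chain that polymerise into the sheet on which every basement membrane is built. Integrins are the heterodimeric receptors, each of an alpha and a beta subunit, through which cells hold on to laminins, collagens, fibronectin and other matrix proteins, and some of them also free transforming growth factor beta (TGF-beta) from its latent form. In the early mouse embryo and in EBs, endodermal cells lay down the first basement membrane, and the epiblast and later the neural epithelium rest upon it. Which laminins a cell can bind depends mostly on the alpha subunit, and many alpha subunits share the partner encoded by Itgb1.

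The untreated EB and ES cell arrays differed from each other as their labels say. Against ES cells, untreated EBs had all 10 of 10 pluripotency markers past 1.5-fold lower (median log2 difference -2.68) and 9 of 11 visceral endoderm markers past it higher. The median signal of all probe sets lay between 6.66 and 6.69 on each array. The lower quartile lay between 5.19 and 5.22. Signals of different probe sets depend on their probes, so each gene was compared across arrays, and the array median was used only as a rough mark of low signal.

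Most laminin and integrin genes differed little between ligand-treated and untreated EBs. In bexarotene-treated EBs 1 of the 37 genes, Itgb8, was past 1.5-fold higher than in untreated EBs, where 1.48% of all genes were, and 3, Lama2, Itgb5 and Itga4, were past it lower, where 2.15% of all genes were. In RA-treated EBs Itgb8 was again the gene past 1.5-fold higher (2.07% of all genes), and Lama2, Itgb5 and Itga8 were past it lower (2.22% of all genes). Both comparisons use the single untreated array. The median log2 difference of the 10 laminin genes was 0.01 with bexarotene and 0.11 with RA, and that of the 27 integrin genes was -0.003 and -0.006. Over all genes the median was -0.008 with bexarotene and 0.00 with RA.

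**Figure D1:**
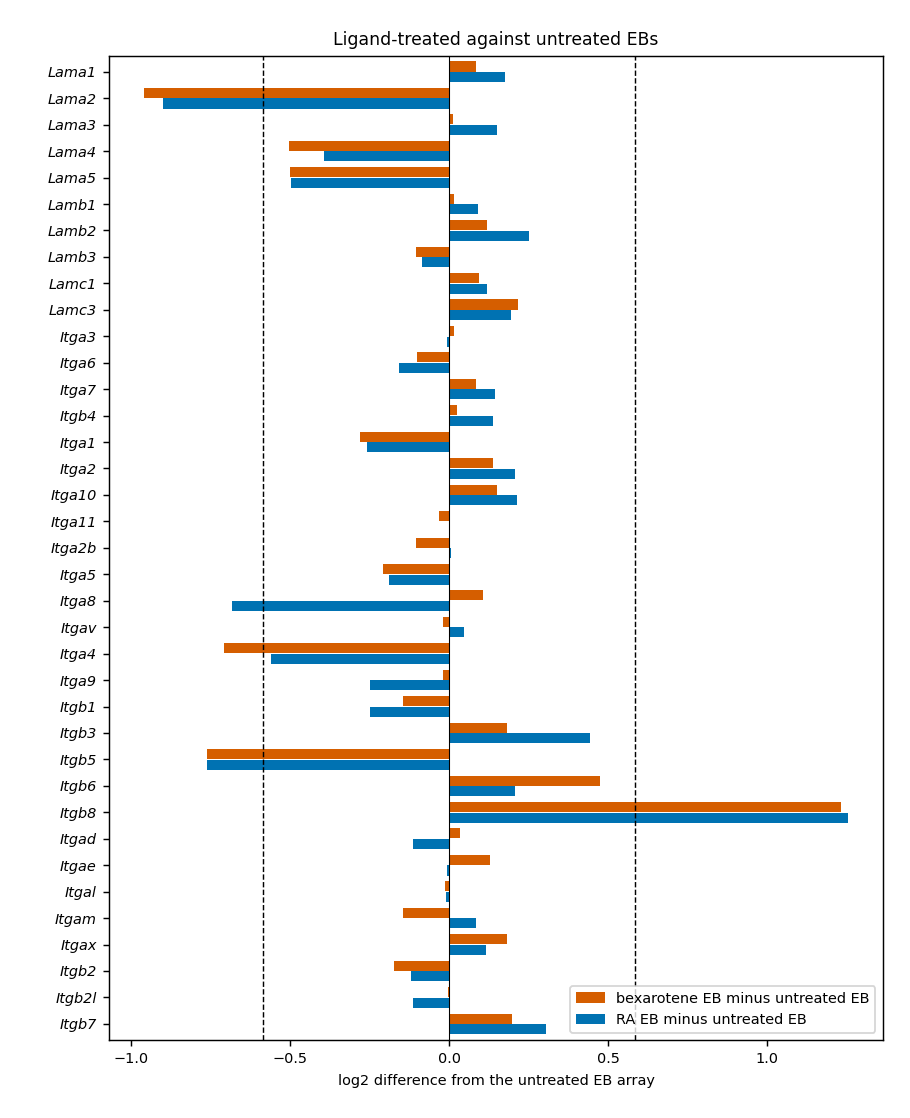
Log2 difference of each laminin and integrin gene from the untreated EB array (x axis), with bexarotene in orange and RA in blue; genes are ordered by role and dashed lines mark 1.5-fold. Itgb8 extends furthest to the right, at 1.23 and 1.25, and Lama2 furthest to the left, at -0.96 and -0.90.

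Itgb8 encodes a beta subunit that pairs only with the Itgav product and activates latent TGF-beta, and it is known from neural progenitors, where it is needed for the vessels of the developing brain. Its log2 signal was 9.37 in bexarotene-treated EBs, 9.39 in RA-treated EBs, 8.14 in untreated EBs and 5.86 in ES cells. Both ligand-treated arrays were thus high, the untreated array stood between, and the ES cell array was low, below the array median. Relative to untreated EBs the signal was 2.35-fold higher with bexarotene and 2.38-fold higher with RA. These differences held rank 72 and rank 92 among the increases over all 19938 genes. Untreated EBs were 4.85-fold above ES cells, bexarotene-treated EBs 11.4-fold and RA-treated EBs 11.5-fold, the last holding rank 21 among increases. Between the ligands the log2 difference was -0.02, where the spread of bexarotene minus RA over probe sets of like signal (a robust SD) was 0.104. That spread comes from 1 pair of arrays, holds real differences between the ligands, and says nothing of the spread between cultures.

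Its only alpha partner was nearly level. Itgav, which pairs with several beta subunits and binds vitronectin, fibronectin and latent TGF-beta, had a log2 signal of 10.18 with bexarotene, 10.24 with RA, 10.19 in untreated EBs and 9.82 in ES cells. Neural progenitor markers were higher on the same arrays as Itgb8. With bexarotene 4 of 9 were past 1.5-fold higher (1.48% of all genes were), and with RA 5 of 9 (2.07% of all genes). Their mean log2 signal was 9.96 with bexarotene, 10.10 with RA, 9.14 in untreated EBs and 8.26 in ES cells. The 10 neuronal markers had means of 8.54, 9.00, 7.55 and 7.53 in the same order, with all 10 at or above the array median under either ligand. Neural crest and Schwann cell markers were also higher with either ligand than in untreated EBs, with means of 8.35, 8.33, 7.51 and 7.55. The part of these cell types in the Itgb8 values was not tested. In RNA from whole EBs, more cells of a type and more RNA per cell cannot be told apart.

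Of the other beta partners of Itgav, Itgb5 lay below untreated EBs with both ligands, and Itgb3 and Itgb6 lay above them without passing 1.5-fold. Itgb5, whose product binds vitronectin, had a log2 signal of 9.70 with bexarotene, 9.70 with RA, 10.46 in untreated EBs and 9.31 in ES cells. The untreated array alone was high, and both ligand-treated arrays lay nearer to ES cells. The ligand-treated arrays were each 1.69-fold below untreated EBs, and they differed from each other by 0.001 on the log2 scale. Itgb5 was 2.22-fold higher in untreated EBs than in ES cells. Itgb3, the partner of both Itgav and Itga2b, had 6.74 with bexarotene, 7.00 with RA, 6.56 in untreated EBs and 7.01 in ES cells, with no difference past 1.5-fold. Itgb6, an epithelial subunit that also activates latent TGF-beta, was below the array median on all 4 arrays, at 5.50, 5.23, 5.02 and 4.70 in the same order, so that its arrays stood in nearly the order of Itgb8, with log2 differences from untreated EBs of 0.47 with bexarotene and 0.21 with RA. Against ES cells it was 1.74-fold higher with bexarotene, a difference that falls to 0.31 on the log2 scale when signals below the 25th percentile of their array are raised to it. Tgfb1, which encodes a latent growth factor that the Itgb8 and Itgb6 products free, lay below untreated EBs by 1.92-fold under bexarotene and by 2.27-fold under RA. Ltbp1, which stores it in the matrix, lay below by 1.91-fold and 1.99-fold.

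Lama2 encodes the alpha chain of the laminins around muscle fibres and Schwann cells, and its loss causes a muscular dystrophy. The log2 signals were 5.47 with bexarotene, 5.53 with RA, 6.43 in untreated EBs and 5.33 in ES cells. Again the untreated array alone was high and the other 3 differed by 0.20 or less. Against untreated EBs, Lama2 was lower by 1.94-fold under bexarotene and by 1.86-fold under RA. Untreated EBs exceeded ES cells by 2.15-fold. All 4 signals were below the array median, so these folds rest on dim probe sets. Lama2 is given in full although its signal was low, because it is among the few genes past 1.5-fold.

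Itga4 encodes the alpha subunit that binds Vcam1 and fibronectin and is known from blood, muscle and neural crest cells. It had 6.04 with bexarotene, 6.19 with RA, 6.74 in untreated EBs and 5.98 in ES cells. The untreated array was highest and the others were alike. Only the untreated signal reached its array median, which was 6.68, so the folds of Itga4 rest on a dim probe set. Against untreated EBs, Itga4 was lower by 1.63-fold under bexarotene and by 1.47-fold under RA, so it was the smallest difference past the threshold with bexarotene and the largest not past it with RA. A loess correction of the arrays placed the RA value past the threshold too. Its ligand gene Vcam1 had 6.01 with bexarotene, 6.19 with RA, 5.55 in untreated EBs and 5.55 in ES cells. The related subunit gene Itga9 had 8.50, 8.27, 8.52 and 8.45 in the same order, with no difference past 1.5-fold.

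Some markers of mesenchyme and muscle were lower on the same arrays as Lama2, Itgb5 and Itga4, and others were not. Of 10 mesenchyme markers, 3 were past 1.5-fold lower and 1, Prrx2, was past it higher with bexarotene, and 4 were lower with RA. Their mean log2 signal was 7.56 with bexarotene, 7.41 with RA, 7.99 in untreated EBs and 6.57 in ES cells. Among 12 cardiac and smooth muscle markers, bexarotene had 5 past 1.5-fold lower and RA had 6, the rest not passing, with mean signals of 7.26, 7.14, 7.83 and 7.08. The definitive and anterior endoderm markers, of which 7 of 9 were past 1.5-fold lower with either ligand, had means of 7.60, 7.70, 9.15 and 7.10. Neural crest and Schwann cell markers lay the other way, with 4 of the 7 measured past 1.5-fold higher with bexarotene, 3 with RA and none lower, and means of 8.35, 8.33, 7.51 and 7.55. Of 6 primitive erythroid markers, 2 were past 1.5-fold lower with either ligand. The part of these cell types in the values of Lama2, Itgb5 and Itga4 was not tested.

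Itga8 was the member that set the ligands apart. It encodes an alpha subunit that pairs with the Itgb1 product, binds nephronectin and is needed for the outgrowth of the kidney bud in the mouse. The log2 signals were 7.62 with bexarotene, 6.83 with RA, 7.51 in untreated EBs and 7.49 in ES cells. The RA array was low and the other 3 lay within 0.13 of each other. The bexarotene array exceeded the RA array by 1.73-fold, or 0.79 on the log2 scale. At like signal the spread of that pair was 0.130, and the difference held rank 13 among the genes higher with bexarotene. Relative to untreated EBs, Itga8 was 1.61-fold lower with RA and 1.08-fold higher with bexarotene. Npnt, which encodes nephronectin, had 8.84 with bexarotene, 8.42 with RA, 8.48 in untreated EBs and 8.22 in ES cells, and here the bexarotene array was the high one, 1.34-fold above RA.

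Between the 2 ligands no other laminin or integrin gene was past 1.5-fold. Over all genes, 0.196% were past it higher with bexarotene than with RA and 0.296% were past it lower. The next largest differences of bexarotene minus RA after Itga8 were 0.27 for Itgb6, -0.26 for Itgb3, -0.23 for Itgam and 0.23 for Itga9. The 10 laminin genes lay between -0.14 and 0.02, with a median of -0.07, where the median of all genes was -0.01.

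The promoters of the 5 genes past 1.5-fold with either ligand are shown because RAR and RXR bind DNA at pairs of a short half-site. They come from RefSeq on mouse build GRCm38.p6 and run from 250 bases before the annotated start of the gene to 50 bases after it, read 5′ to 3′ on the gene's strand. The windows are chr12:119238227-119238526 (minus strand) for Itgb8, chr16:33829415-33829714 (plus strand) for Itgb5, chr10:27616893-27617192 (minus strand) for Lama2, chr2:79255176-79255475 (plus strand) for Itga4 and chr2:12301895-12302194 (minus strand) for Itga8. Capitals mark a retinoid half-site (the sequence AGGTCA, its variant AGTTCA, the form GGGTCA or the form GGTTCA) or a GC box (GGGCGG), found on either strand.
Itgb8: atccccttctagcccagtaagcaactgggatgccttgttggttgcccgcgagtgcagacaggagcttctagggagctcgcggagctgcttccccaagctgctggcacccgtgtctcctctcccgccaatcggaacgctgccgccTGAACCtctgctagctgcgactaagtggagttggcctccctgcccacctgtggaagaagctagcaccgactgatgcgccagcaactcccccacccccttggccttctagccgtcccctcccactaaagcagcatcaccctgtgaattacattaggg
Itgb5: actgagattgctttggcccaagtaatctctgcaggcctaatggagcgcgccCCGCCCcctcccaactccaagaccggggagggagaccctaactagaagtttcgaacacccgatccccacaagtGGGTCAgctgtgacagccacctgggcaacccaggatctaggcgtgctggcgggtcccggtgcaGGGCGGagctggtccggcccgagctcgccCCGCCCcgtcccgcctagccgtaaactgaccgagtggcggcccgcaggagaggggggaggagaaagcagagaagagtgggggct
Lama2: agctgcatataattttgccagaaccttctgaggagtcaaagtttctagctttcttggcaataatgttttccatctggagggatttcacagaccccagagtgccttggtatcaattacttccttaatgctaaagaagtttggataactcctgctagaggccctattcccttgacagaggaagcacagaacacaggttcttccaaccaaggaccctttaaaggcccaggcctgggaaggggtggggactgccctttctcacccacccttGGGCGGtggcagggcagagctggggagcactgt
Itga4: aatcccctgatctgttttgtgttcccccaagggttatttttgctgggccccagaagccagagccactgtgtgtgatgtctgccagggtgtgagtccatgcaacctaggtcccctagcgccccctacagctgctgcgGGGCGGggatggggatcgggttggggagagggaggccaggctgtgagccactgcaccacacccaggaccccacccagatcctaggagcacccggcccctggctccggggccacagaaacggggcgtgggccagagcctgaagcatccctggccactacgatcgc
Itga8: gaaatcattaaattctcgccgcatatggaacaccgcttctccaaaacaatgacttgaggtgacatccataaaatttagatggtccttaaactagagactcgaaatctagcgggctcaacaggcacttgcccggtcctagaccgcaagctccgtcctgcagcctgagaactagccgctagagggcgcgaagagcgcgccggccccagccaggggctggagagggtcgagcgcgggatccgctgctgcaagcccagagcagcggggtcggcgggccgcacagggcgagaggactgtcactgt

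In these windows Itgb8 has a single half-site, GGTTCA on the strand opposite to the one printed, at position -106 from the start, and no GC box. Itgb5 has the half-site GGGTCA at position -126 and 3 GC boxes. Lama2 and Itga4 each have 1 GC box and no half-site, and Itga8 has neither. A half-site occurs in 43.7% of the 32851 promoters in the same table and in 11 of the 27 promoters listed for 24 of the member genes. A GC box occurs in 35.7% of all promoters and in 12 of those 27. No member promoter holds 2 half-sites as a direct repeat spaced by 1, 2 or 5 bases, arrangements found in 0.222%, 0.268% and 0.0974% of all promoters. A direct repeat contains 2 half-sites and so overlaps them by construction. A match of letters is not a binding site, and the absence of one covers these 300 bases only.

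Relative to ES cells, laminin and integrin genes differed in both directions. In untreated EBs 6 of the 37 genes were past 1.5-fold higher (11.0% of all genes were) and 4 were past it lower (8.52% of all genes). With bexarotene 6 were higher (10.2% of all genes) and 6 lower (9.69%), and with RA 5 were higher (10.5%) and 6 lower (9.19%). The 3 comparisons share the ES cell array. Laminin chains had 3 of 10 past 1.5-fold higher and none lower in untreated EBs. With either ligand 4 laminin chains were higher and 1, Lama5, was lower.

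**Figure D2:**
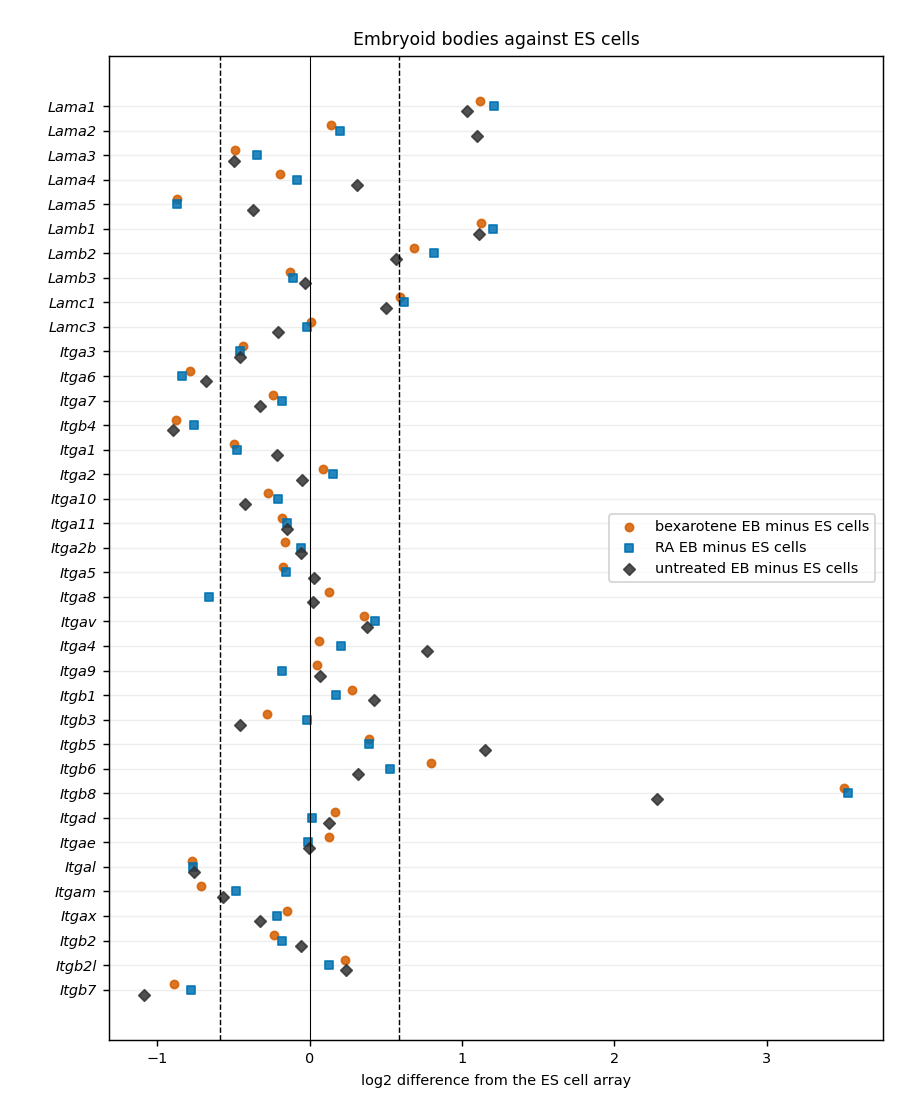
Log2 difference of each laminin and integrin gene from the ES cell array (x axis), for bexarotene-treated (orange circles), RA-treated (blue squares) and untreated EBs (black diamonds); dashed lines mark 1.5-fold. Lama1, Lamb1, Lamb2 and Lamc1 lie to the right in all 3, Itga6, Itgb4, Itgal and Itgb7 to the left, and Itgb8 stands apart at 2.28 to 3.53.

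The alpha and beta chains of the first embryonic laminin were higher in all EBs than in ES cells. Lama1, the alpha chain of that laminin, had a log2 signal of 11.45 with bexarotene, 11.54 with RA, 11.37 in untreated EBs and 10.33 in ES cells. The 3 EB arrays were alike and the ES cell array was low. Relative to ES cells Lama1 was 2.17-fold higher with bexarotene, 2.31-fold with RA and 2.05-fold in untreated EBs. Lamb1, the beta chain of the same trimer and of many other laminins, had 11.08 with bexarotene, 11.16 with RA, 11.07 in untreated EBs and 9.96 in ES cells, and was 2.18-fold, 2.30-fold and 2.16-fold above ES cells. Lamc1, the gamma chain shared by nearly all laminins, had 11.60, 11.62, 11.51 and 11.00 in the same order. Its difference from ES cells was 1.51-fold with bexarotene, the smallest past the threshold, 1.54-fold with RA and 1.42-fold in untreated EBs.

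Lamb2, the beta chain of the glomerular and neuromuscular basement membranes, had 9.34 with bexarotene, 9.47 with RA, 9.22 in untreated EBs and 8.66 in ES cells. All 3 EB arrays were above ES cells, by 1.61-fold with bexarotene, 1.76-fold with RA and 1.48-fold in untreated EBs, the last just short of the threshold. The largest difference of any beta or gamma chain between a ligand and untreated EBs was 0.25, for Lamb2 with RA, and that of Lama1 was 0.17.

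Lama5 went the other way. It encodes the alpha chain of the laminins that succeed the first ones beneath most epithelia, and such laminins sustain ES cells in culture. The signals were 8.87 with bexarotene, 8.88 with RA, 9.37 in untreated EBs and 9.74 in ES cells. ES cells were highest, untreated EBs stood between, and the ligand-treated arrays were low. Against ES cells, Lama5 was lower by 1.83-fold under bexarotene and by 1.82-fold under RA. Against untreated EBs it was lower by 1.41-fold under either ligand, which is not past the threshold.

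The remaining laminin chains had low or level signals. Lama4, a chain of vessel walls, had 5.46 with bexarotene, 5.57 with RA, 5.97 in untreated EBs and 5.66 in ES cells, and its log2 difference of -0.50 with bexarotene was the largest of any member not past the threshold in that comparison. Among 10 endothelial markers, bexarotene had 2 past 1.5-fold lower and RA had 3, with mean signals of 7.38 with bexarotene, 7.21 with RA, 7.60 in untreated EBs and 7.00 in ES cells. Their part in the Lama4 values was not tested. Lama3 and Lamb3, chains of the laminin that anchors the epidermis, ranged over the 4 arrays from 5.89 to 6.39 and from 6.64 to 6.77. Lamc3, a gamma chain of restricted expression, ranged from 7.12 to 7.34. None of these 3 genes was past 1.5-fold in any of the 6 comparisons.

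**Figure D3:**
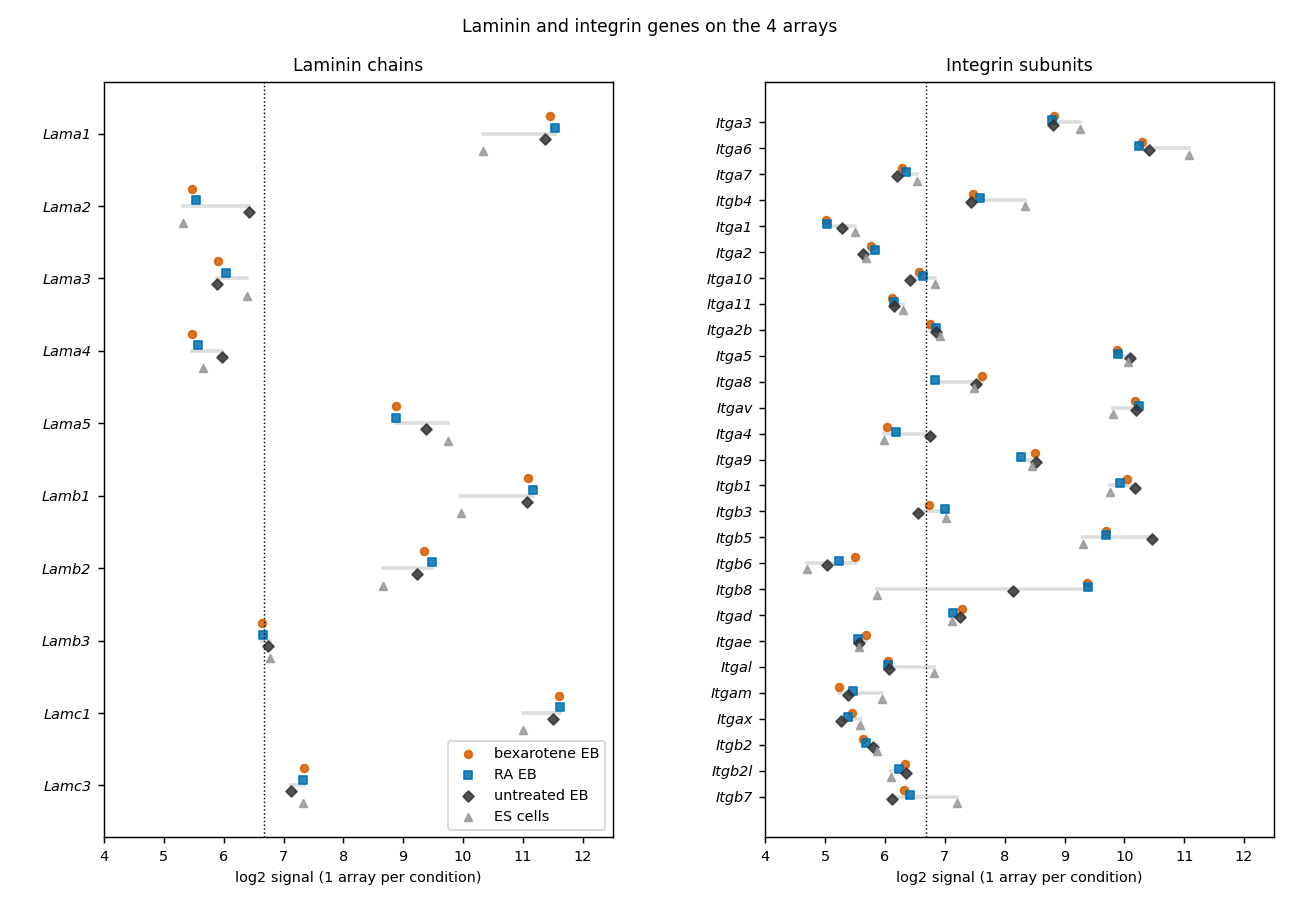
Log2 signal (x axis) of each laminin and integrin gene on the 4 arrays, 1 point per array (bexarotene orange circle, RA blue square, untreated black diamond, ES cells grey triangle); grey bars span the 4 arrays and the dotted line marks the mean of the array medians. Signals are comparable along a row, not between rows. The row of Itgb8 is the widest, from 5.86 to 9.39, and most rows of the leukocyte subunits at the foot lie left of the line.

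Of the laminin receptor subunits other than the widely shared Itgb1, Itga6 and Itgb4 were past 1.5-fold lower in EBs than in ES cells. Itga3 and Itga7 were not past it. Itga6, whose product pairs with those of Itgb1 and Itgb4 and is the chief laminin receptor of ES cells, had 10.30 with bexarotene, 10.25 with RA, 10.40 in untreated EBs and 11.08 in ES cells. The ES cell array was high, and the EB arrays were 1.72-fold, 1.79-fold and 1.60-fold below it. Itgb4, the hemidesmosomal subunit that pairs only with the Itga6 product, had 7.47, 7.58, 7.44 and 8.34 in the same order, and lay below ES cells by 1.83-fold with bexarotene, 1.69-fold with RA and 1.86-fold in untreated EBs. Itga3, a laminin receptor subunit of epithelia, had 8.82, 8.80, 8.80 and 9.26 and stayed short of 1.5-fold. Itga7, the laminin receptor subunit of muscle, ranged from 6.21 to 6.53, below the array median throughout. With either ligand all 4 of these genes were within 0.16 of untreated EBs on the log2 scale.

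The shared subunit Itgb1 had a log2 signal of 10.04 with bexarotene, 9.93 with RA, 10.18 in untreated EBs and 9.76 in ES cells. All EB arrays were thus above ES cells, with no difference past 1.5-fold. Itga5, the fibronectin receptor subunit that pairs with it, had 9.88, 9.90, 10.09 and 10.06 in the same order. Its ligand gene Fn1 had 11.61, 11.45, 11.79 and 12.04. Itga2b, the platelet fibrinogen receptor subunit, ranged from 6.75 to 6.91. The collagen receptor subunits Itga1, Itga2, Itga10 and Itga11 lay between 5.01 and 6.84 over all arrays, and 3 of the 4 were below the array median on every array. None of them was past 1.5-fold in any comparison.

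Of the 8 subunits known mainly from leukocytes, none was past 1.5-fold between any EB arrays, where 5.16% of all genes were. Their differences from untreated EBs ran from -0.17 to 0.20 with bexarotene and from -0.12 to 0.31 with RA. Itgb7, the partner of Itga4 and Itgae in lymphocytes, had 6.32 with bexarotene, 6.42 with RA, 6.12 in untreated EBs and 7.20 in ES cells, and was 1.85-fold, 1.71-fold and 2.12-fold below ES cells. Itgal, the alpha subunit by which lymphocytes bind Icam1, had 6.05, 6.06, 6.06 and 6.82, and was 1.71-fold, 1.70-fold and 1.69-fold lower than in ES cells. The ES cell array alone was high for both. Itgam was 1.64-fold lower with bexarotene than in ES cells, at signals from 5.23 to 5.94. Itgax ranged from 5.26 to 5.59, Itgae from 5.55 to 5.69, Itgb2 from 5.63 to 5.86, Itgb2l from 6.10 to 6.34, and the brighter probe set of Itgad from 7.12 to 7.29. The dimmer Itgad probe set ranged from 5.35 to 5.68.

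Most leukocyte markers were below the array median. Of 10 such markers, 2 were at or above the array median with bexarotene, 2 with RA, 3 in untreated EBs and 2 in ES cells, and their mean log2 signal was 6.07, 6.12, 6.02 and 6.46. Laptm5 had 7.60 with bexarotene, 7.94 with RA, 7.30 in untreated EBs and 11.40 in ES cells, and so like Itgal and Itgb7 was highest in ES cells, with untreated EBs 17.2-fold below. Lcp1 had 8.11, 8.11, 8.19 and 6.40 in the same order and was lowest in ES cells. These 2 were the only markers of the list past 1.5-fold between untreated EBs and ES cells, and 8 were not. The median log2 difference of the 10 in that comparison was -0.28, where that of all genes was -0.04. The part of leukocytes in the values of Itgal and Itgb7 was not tested. Icam1, the ligand gene of Itgal, had 7.54 with bexarotene, 7.34 with RA, 7.23 in untreated EBs and 9.54 in ES cells, so it too was highest in ES cells.

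Genes that build the basement membrane with laminins behaved like the first laminin chains in part. Against ES cells, untreated EBs had 12 of 25 basement membrane partners past 1.5-fold higher (11.0% of all genes were). Only 1, Hspg2, was past it lower (8.52% of all genes). The other 12 were past it in neither direction. Among them were Nid1, Nid2, Agrn and Col18a1, with log2 differences of -0.07, -0.37, 0.32 and -0.42. Col4a1 and Col4a2, the collagen chains of all basement membranes, were 3.56-fold and 4.32-fold higher in untreated EBs than in ES cells, and within 0.26 of untreated EBs with either ligand. With bexarotene 3 of the 25 were past 1.5-fold lower than in untreated EBs and none higher, namely Smoc2 (1.75-fold), Hmcn1 (1.63-fold) and Frem1 (1.60-fold). With RA the same 3 were lower, by 1.94-fold, 1.85-fold and 1.67-fold. Frem1, which helps bind epidermis to dermis, was 15.1-fold higher in untreated EBs than in ES cells. The median log2 difference of the list was 0.002 with bexarotene and -0.04 with RA. Parietal endoderm markers, which name a cell type that lays down basement membrane, had a mean signal of 10.19 with bexarotene, 10.20 with RA, 10.03 in untreated EBs and 8.34 in ES cells. Their part in the values of Lama1, Lamb1, Col4a1 and Col4a2 was not tested.

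Among integrin ligands other than laminins, more genes were past the threshold lower than higher, as was so over all genes. Of all genes, 1.48% were past it higher and 2.15% lower with bexarotene, and 2.07% and 2.22% with RA. Of 28 such genes, Tgfbi, a matrix protein induced by TGF-beta, was past 1.5-fold higher with bexarotene (1.58-fold) and 5 were past it lower. Postn, a matrix protein of mesenchyme, lay below untreated EBs by 2.91-fold under bexarotene and by 2.02-fold under RA. Tnc, a matrix protein bound by the Itga8 and Itga9 products, was 1.78-fold and 2.39-fold lower. With RA 5 were lower and Vcam1 was higher (1.56-fold). Tgfbi was also the single list member past 1.5-fold between the ligands, 1.60-fold higher with bexarotene than with RA. The list medians were 0.03 with bexarotene and -0.04 with RA.

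**Figure D4:**
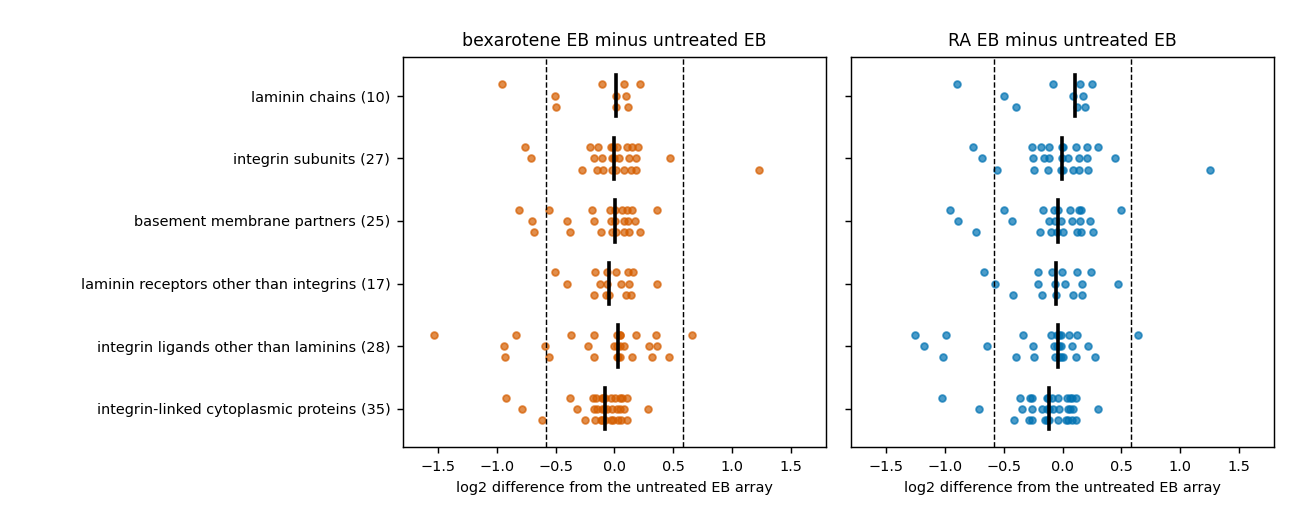
Log2 difference from the untreated EB array (x axis) for laminin chains, integrin subunits and 4 lists of related genes, with bexarotene on the left and RA on the right; each point is 1 gene, the number measured is in parentheses, black bars are medians and dashed lines mark 1.5-fold. Every median lies close to 0, between -0.12 and 0.11, and most points past the lines are on the lower side.

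Of 17 laminin receptors other than integrins and their partners, none was past 1.5-fold with bexarotene and 1, the syndecan gene Sdc2, was past it lower with RA (1.59-fold). Dag1, which encodes dystroglycan, had 10.44 with bexarotene, 10.30 with RA, 10.51 in untreated EBs and 10.56 in ES cells. Bcam, a receptor for the Lama5 chain, had 8.64, 8.24, 8.82 and 9.89 in the same order and like Lama5 was highest in ES cells. Of the genes of 35 proteins that tie integrins to the cytoskeleton and to signalling, bexarotene had 3 past 1.5-fold lower, RA had 2, and neither had one higher. Over all genes, 2.15% were past it lower with bexarotene and 2.22% with RA. Flnc, a filamin of muscle, lay below untreated EBs by 1.90-fold under bexarotene and by 2.04-fold under RA, and Tln2, a talin, by 1.72-fold and 1.64-fold. The kinase gene Ptk2b was 1.53-fold lower with bexarotene. Against ES cells, untreated EBs had 6 of the 35 past 1.5-fold higher (11.0% of all genes were), among them Parva (3.37-fold) and Ilk (1.91-fold). The 3 past it lower (8.52% of all genes) were Ptk2b (2.53-fold), Tns3 (2.25-fold) and Parvb (2.03-fold). The medians of this list were -0.08 with bexarotene and -0.12 with RA.

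Over the 6 comparisons, 16 of the 37 genes were past 1.5-fold at least once, where 25.7% of all genes were, and 21 never were. Between any EB arrays 5 were past it, where 5.16% of all genes were, namely Itgb8, Itgb5, Lama2, Itga4 and Itga8. Across the 4 arrays, 17 genes were at or above the array median on all, 13 were below it on all, and 7 changed sides. Of the 13, 3 are laminin chains and 10 are integrins.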

How the data were processed

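RNA of the 4 conditions was hybridised to Affymetrix mouse gene arrays after cDNA synthesis and biotin labelling, 1 array per condition. The authors deposited log2 signal values, 1 for each probe set and array, after background correction, normalization across the 4 arrays and probe set summarization. The article names RMA, while the design text and the submitters' processing notes name GC-RMA, both in Affymetrix Expression Console. GC-RMA treats background differently from RMA and mostly affects dim probe sets, so their folds depend on which was run. Each array has 35556 probe sets, of which 21789 have 1 gene symbol in the platform annotation, 1621 several and 12146 none. All 38 member probe sets carry a current symbol. A further 3 probe sets that name Itgam beside a ribosomal protein gene were not used.

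A gene stands by its probe set of highest mean signal, over 19938 genes. Differences were taken between arrays and called past 1.5-fold, and calls over all genes give the background percentages. No test was possible with single arrays. The calling code was run on simulated shifts set well past the threshold, which checks the code and not the calls on single arrays. Alternatives were a 2-fold threshold, quantile normalization, a loess fit (span 0.3), raising low signals to the 25th percentile, leaving out probe sets below the median of both arrays, and the mean or any probe set of a gene. Each gene's signal placed it in 1 of 20 bins, and the bin's robust SD of bexarotene minus RA was taken.

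Members were picked by gene symbol alone, but the symbol rule, gene lists, markers and roles were set with earlier results of these data known. Every member was named. Values of all 4 arrays were planned for members past 1.5-fold with a signal at or above the array median and for the highest genes of each family; Lama2, Lama4, Itgb6, Itgb3 and the listed genes beyond 4 per list, such as Npnt, Icam1, Fn1, Bcam, Parva and Laptm5, were added after their values were seen. Role groups were also made after the values were seen. Listed genes without a single-symbol probe set were not analysed. Python 3.11.15, pandas 2.3.3, numpy 2.4.6 and statsmodels 0.14.6 were used.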

Additional observations from a re-analysis of the deposited data

How the results depend on the processing

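Counts of laminin and integrin genes past the threshold changed by over 1.5 times only with the threshold itself. At 2-fold, 1 gene (Itgb8) stayed past it with bexarotene against untreated EBs, 1 (Itgb8) with RA against untreated EBs and 0 between bexarotene and RA. Against ES cells, 3 genes stayed past 2-fold with bexarotene, 3 with RA and 6 in untreated EBs. The share of all genes past 2-fold was not computed, so these counts cannot be set against a background. Under the other 6 alternatives each count stayed within 1.5 times of its value, and no gene past 1.5-fold changed direction. Of the 42 differences past 1.5-fold, 0 were lost under quantile normalization and 0 under loess, which added 1, Itga4 with RA against untreated EBs. The floor at the 25th percentile removed 1, Itgb6 with bexarotene against ES cells, where the log2 difference became 0.31. Leaving out dim probe sets kept 37 of the 42 differences in the comparison, and 0 of these were lost. It dropped every difference of Lama2, and those of Itgb6 and Itgam with bexarotene against ES cells, so it was no check of them. In that setting the median of the integrin genes became -0.13 with RA against untreated EBs. The medians of the laminin genes against ES cells became 0.60 with bexarotene and 0.62 with RA. No paired analysis was possible because each condition has 1 array, and for the same reason no array could be left out. Background signal per probe set was not used here, which limits what can be said of the 13 genes below the array median on all 4 arrays.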

Other observations

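Outside the families described, none of the 10 pluripotency markers was past 1.5-fold higher in bexarotene-treated EBs than in untreated EBs, with a median log2 difference of 0.36. In RA-treated EBs 7 of the 10 were past it higher than in untreated EBs, with a median of 0.67. Their mean log2 signal was 8.71 with bexarotene, 8.98 with RA, 8.41 in untreated EBs and 11.03 in ES cells. Pou5f1 was past 1.5-fold lower with bexarotene than with RA, a log2 difference of -0.60. The 5 megakaryocyte and platelet markers measured had a mean signal of 5.97 with bexarotene, 6.02 with RA, 5.73 in untreated EBs and 5.89 in ES cells.

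Among the remaining marker lists, visceral endoderm had 0 of 11 genes past 1.5-fold with either ligand against untreated EBs. Surface ectoderm and epithelium had 1 of 12 higher and 1 lower with bexarotene, and 0 higher and 2 lower with RA. Primitive streak and mesoderm had 3 of the 7 measured lower with bexarotene and 0 past 1.5-fold with RA. The listed marker T (brachyury) had no single-symbol probe set and is not among the 7. The article reports T as lower with both ligands than in untreated EBs. Trophoblast had 1 of 8 lower with bexarotene and 2 with RA.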
